A study of Homo sapiens with 16 samples.

Results

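The genes of glycolysis, the pentose phosphate pathway and the citrate cycle were followed across 2 sets of 8 microarrays of LNCaP-1F5 cells. Of 42 listed symbols, 39 had a detected probe and were tested in each set, 20 of glycolysis and pyruvate entry, 5 of the pentose phosphate pathway and 14 of the citrate cycle and its side reactions. They stand among 9028 tested genes on the version 3 array and 10999 on the version 4 array. The members were listed by name, and each was read by its best detected probe, the one detected on most arrays and, among those, the brightest. All 39 were detected on 8 of 8 arrays in each set. PDK1, a kinase that switches off pyruvate dehydrogenase, was listed but not tested, and 2 listed symbols of the citrate cycle were not analysed here.

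LNCaP-1F5 is a subline of the human prostate cancer line LNCaP into which a rat glucocorticoid receptor was introduced. By their labels, parental cells and cells given an siRNA smartpool against FOXA1 (siFoxA1), a factor that opens chromatin for steroid receptors, spent 3 days in charcoal-stripped medium. They were then given vehicle or hormone for 24 h, which was 100 nM of the androgen dihydrotestosterone (DHT) in the DHT set and 100 nM of the synthetic glucocorticoid dexamethasone (DEX) in the DEX set. Each set has 4 titled groups, vehicle parental, hormone parental, vehicle siFoxA1 and hormone siFoxA1, with 2 arrays each. The series text calls the 2 arrays of a group biological duplicates. In comparisons between these groups, p-values measure the spread between the 2 arrays of a group, or what a replicate block leaves of it. The DHT set used an Illumina HumanHT-12 version 3 chip and the DEX set a version 4 chip. Each set was normalized on its own, so levels were not compared between sets or between probes. All values below are log2 levels of single arrays or log2 differences between arrays of different titles or replicate numbers.

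Glycolysis splits glucose into pyruvate, with hexokinase and phosphofructokinase as its control steps, and yields ATP without oxygen. The pentose phosphate pathway branches off after the first step and supplies NADPH and ribose for nucleotides. The citrate cycle oxidises acetyl-CoA in mitochondria, and normal prostate epithelium is known for exporting citrate where other tissues burn it. Prostate cancer cells are known to take up citrate oxidation again, and androgen is known to raise glucose use and fatty acid synthesis in them.

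The titles did not match the genes that check them. FOXA1 in the DHT set lay between 13.54 and 13.68 on the 4 arrays titled vehicle and between 12.24 and 12.37 on the 4 titled DHT, whether titled siFoxA1 or not. FKBP5, induced by androgens and glucocorticoids alike, was at 7.76 to 8.22 on the 4 replicate 1 arrays and at 12.14 to 13.16 on the 4 replicate 2 arrays. In the DEX set, FKBP5 was at 9.21 to 9.39 under parental titles and at 13.80 to 13.89 under siFoxA1 titles. FOXA1 there was 13.36 and 13.37 on the parental arrays of replicate 1, 12.65 and 12.67 on the siFoxA1 arrays of replicate 1, 12.09 and 12.17 on the parental arrays of replicate 2, and 10.84 on both siFoxA1 arrays of replicate 2. In each set 8 of 8 arrays correlated best with one of their own replicate number and 0 of 8 with the other array of their titled group. No array was moved to another group, so each direction below is one between titles or replicate numbers and not between known treatments. In both sets 5 of 5 luminal epithelium markers with a probe were detected, their summed level lying at 13.87 to 14.50 (DHT set) and 13.76 to 14.36 (DEX set). The luminal keratin KRT8 spanned 9.99 to 12.41 and 10.55 to 13.29, the basal keratins KRT5 and KRT14 and the leukocyte gene PTPRC were undetected, and the haemoglobin gene HBB was detected only on the 2 siFoxA1 arrays of replicate 2 in the DEX set, at 8.84 and 8.78. Of 4 stroma markers with a probe, VIM in the DHT set and VIM and COL1A1 in the DEX set were detected on 8 of 8 arrays. COL1A2 was undetected in both sets. The summed stroma level lay at 7.38 to 8.35 (DHT set) and 8.88 to 9.63 (DEX set). In bulk samples, fewer cells of a type and less RNA per cell cannot be told apart.

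Promoter windows of the members that results below turn on are printed for reference, as RefSeq gives them on GRCh38.p14, from 250 bases before to 50 after the start of transcription. The table held 65 windows of 38 of the 40 symbols analysed, and none of PFKFB2 or OGDH. Capitals mark ACGTG, the core of the hypoxia response element, searched on both strands.
IDH1, chr2:208254409-208254708, minus strand: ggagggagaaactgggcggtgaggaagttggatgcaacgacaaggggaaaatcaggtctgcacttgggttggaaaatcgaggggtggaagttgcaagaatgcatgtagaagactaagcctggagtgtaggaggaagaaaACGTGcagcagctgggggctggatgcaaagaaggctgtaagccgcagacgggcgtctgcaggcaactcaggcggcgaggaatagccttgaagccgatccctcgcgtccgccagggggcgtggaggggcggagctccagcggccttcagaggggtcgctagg
ALDOA, chr16:30064247-30064546, plus strand: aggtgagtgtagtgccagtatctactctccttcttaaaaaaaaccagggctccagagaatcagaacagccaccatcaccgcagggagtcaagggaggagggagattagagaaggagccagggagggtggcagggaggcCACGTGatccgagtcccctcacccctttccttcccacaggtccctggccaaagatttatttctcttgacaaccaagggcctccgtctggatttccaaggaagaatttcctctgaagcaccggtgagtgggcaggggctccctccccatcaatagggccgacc
SLC2A1, chr1:42958819-42959118, minus strand: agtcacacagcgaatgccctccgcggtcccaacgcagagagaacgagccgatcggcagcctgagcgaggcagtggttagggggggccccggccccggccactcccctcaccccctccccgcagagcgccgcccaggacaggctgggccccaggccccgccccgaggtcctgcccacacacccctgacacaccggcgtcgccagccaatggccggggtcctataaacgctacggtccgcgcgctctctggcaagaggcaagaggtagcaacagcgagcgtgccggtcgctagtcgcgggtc
PDHA1, chrX:19343677-19343976, plus strand: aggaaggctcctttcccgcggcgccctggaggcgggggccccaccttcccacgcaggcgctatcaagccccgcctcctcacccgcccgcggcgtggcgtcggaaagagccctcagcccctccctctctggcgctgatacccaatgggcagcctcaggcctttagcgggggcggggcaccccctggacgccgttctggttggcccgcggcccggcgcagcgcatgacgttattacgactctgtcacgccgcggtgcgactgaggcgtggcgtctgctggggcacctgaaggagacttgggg
The printed IDH1 window holds 1 match, and the second IDH1 window of the table, which is not printed, holds 0. The printed ALDOA window holds 2 overlapping matches, 1 on each strand, and the other 2 ALDOA windows hold 1 each. For both genes the window with most matches was printed. SLC2A1 and PDHA1 have 1 window each, without a match. Of the 65 windows, 20 (30.8%, of 16 genes) held ACGTG, against 7518 of all 35116 windows (21.4%). The forkhead letters TGTTTAC were in 0 of 65 windows, against 3.42% of all windows. A match is a description of letters, not a bound site, and a window without one says nothing of the factor.

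Between the titled groups as such, limma called almost no member. At an adjusted p under 0.05, Benjamini-Hochberg over all genes, 0 of 39 members differed between DHT and vehicle titles among parental titles, where 0.764% of all genes were called and 4 members had an unadjusted p under 0.05. Among siFoxA1 titles 0 of 39 differed as well, against 0.93% of all genes, with 5 members at an unadjusted p under 0.05. In the DHT set siFoxA1 titles differed from parental titles in 0 members, against 0% of all genes under both vehicle and DHT titles, with 0 members at an unadjusted p under 0.05 in each. Over all 8 arrays of that set, with the other labels as terms, it was 0 members against 0.0554%, and 6 at an unadjusted p under 0.05. The test of whether the DHT difference depended on the siFoxA1 title called 0 members, against 0% of genes, with 0 at an unadjusted p under 0.05. In the DEX set, DEX and vehicle titles differed in 0 members among parental titles, among siFoxA1 titles and in the interaction, against 0% of all genes in each, with 0 members at an unadjusted p under 0.05. Over all 8 arrays 0 members were called against 0%, and 2 had an unadjusted p under 0.05. Between siFoxA1 and parental titles 0 members were called under vehicle titles, against 3.44% of all genes, with 9 at an unadjusted p under 0.05. Under DEX titles the count was 1, against 3.36% of all genes (0.5% lower) and with 7 at an unadjusted p under 0.05. That member was GPI, which turns glucose 6-phosphate into fructose 6-phosphate, lower by -0.60 (adjusted p = 0.0478), and the call was lost without any 1 of the 8 arrays (adjusted p up to 0.226).

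With the replicate number as a block, the same comparisons called more members. Arrays of the same number deviated together in every pair of groups, as the account of the processing gives, so the blocked values are printed here. DHT titles exceeded vehicle titles in IDH1 by 1.13 (adjusted p = 0.0113), in ME1 by 0.69 (adjusted p = 0.0482) and in ALDOA by 0.57 (adjusted p = 0.0439) among parental titles, which makes 3 of 39 members against 8.3% of all genes in the same blocked fit (3.79% higher). Among siFoxA1 titles, where it called 8.64% of all genes (3.71% higher and 4.93% lower), the 3 were IDH1 by 1.03 (adjusted p = 0.0167), ALDOA by 0.77 (adjusted p = 0.0115) and ENO1 by -0.45 (adjusted p = 0.0458). Between siFoxA1 and parental titles of the DEX set the blocked fit called 12 members under vehicle titles, 6 higher and 6 lower, against 20.0% of all genes (10.1% higher and 9.96% lower). Under DEX titles it called 11, 6 higher and 5 lower, against 19.8% (9.59% and 10.2%). PDHA1, SLC2A1, PC, TALDO1 and ALDOA were higher in both, PDHA1 by 1.51 and 1.41, and ENO2, GPI and LDHB were lower in both. These 2 comparisons use different arrays of the same set.

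**Figure D1:**
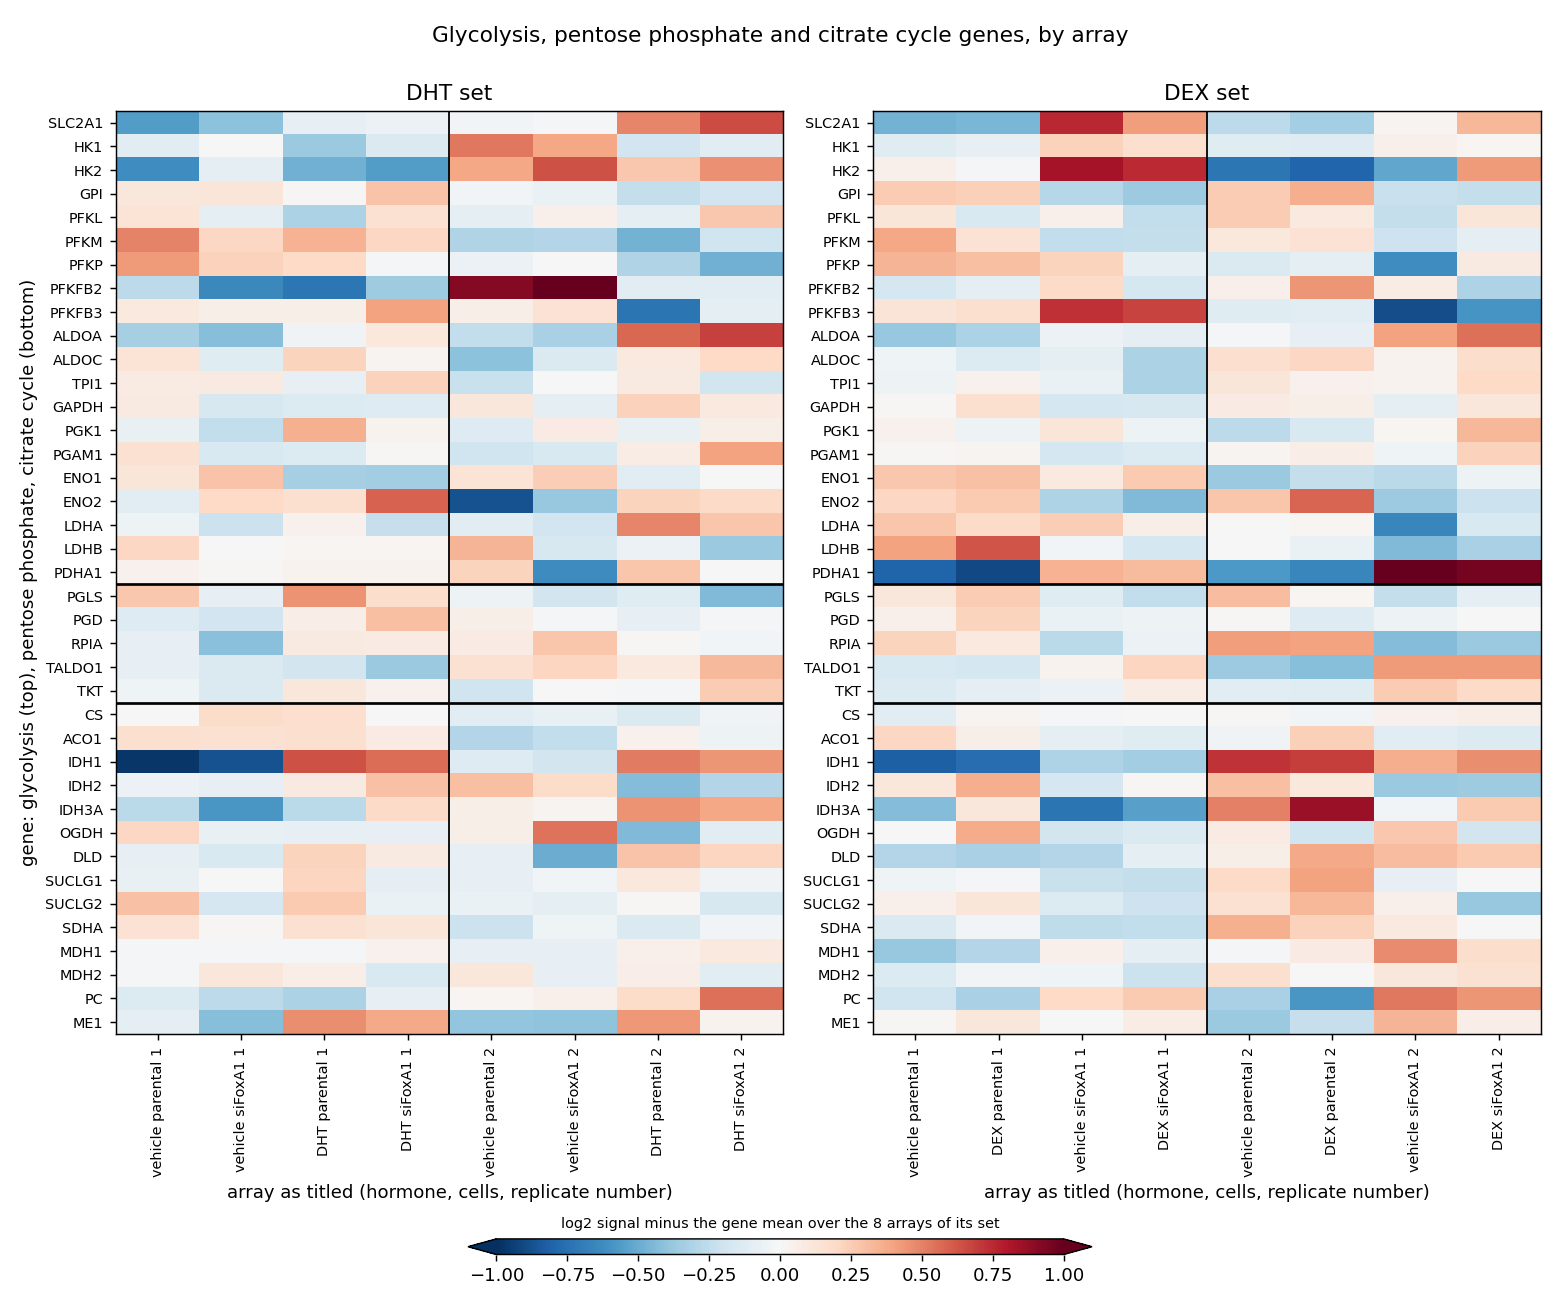
Heat maps of the 39 tested genes (rows, by pathway) on the 8 arrays (columns) of the DHT set and of the DEX set, as the log2 level minus the gene's mean over the 8 arrays, with replicate 1 to the left and replicate 2 to the right of the line. IDH1 in the DHT set is lowest on the 2 vehicle arrays of replicate 1 (12.47 and 12.57) and PDHA1 in the DEX set is highest on the 2 siFoxA1 arrays of replicate 2 (12.47 and 12.13).

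Replicate numbers, and titles within a number, were compared in a second fit, with 4 cells of replicate number by title and 2 arrays in each, and its differences are given ± SE. The 2 arrays of a cell have the same replicate number and differ in the other title. That title is siFoxA1 or parental in the DHT set and DEX or vehicle in the DEX set. No cell thus holds the biological duplicates of a titled group. The p-values of this fit measure the spread between such arrays after the mean difference of the other title. DHT titles against vehicle titles differed in 7 of 39 members on the replicate 1 arrays, 6 higher and 1 lower, which is 17.9% against 20.1% of all genes (9.68% higher and 10.5% lower). On the replicate 2 arrays they differed in 14, 9 higher and 5 lower, or 35.9% against 25.9% (11.6% and 14.3%). Replicate 2 exceeded replicate 1 in 5 members and fell below it in 3 under vehicle titles, 20.5% against 14.6% of all genes (7.59% and 7.02%). Under DHT titles the counts were 7 and 6, or 33.3% against 20.8% (9.59% and 11.2%). In the DEX set, siFoxA1 titles against parental titles differed in 17 members on the replicate 1 arrays, 10 higher and 7 lower, or 43.6% against 31.0% of all genes (14.4% higher and 16.6% lower). On the replicate 2 arrays 21 differed, 10 higher and 11 lower, or 53.8% against 34.5% (15.4% and 19.1%). Replicate 2 against replicate 1 differed in 11 members under parental titles, 8 higher and 3 lower or 28.2% against 24.9% (11.7% and 13.2%), and in 16 under siFoxA1 titles, 11 higher and 5 lower, or 41.0% against 24.1% (11.2% and 12.9%). The median difference over the 39 members was between -0.10 and 0.09 in these 8 comparisons, and the median over all genes between -0.06 and 0.00. In each comparison members of glycolysis were called in both directions.

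The comparisons within a number rest on 2 arrays against 2, and many calls depended on 1 array. Those that held without any single array were, for DHT titles, IDH1 and ENO1 on replicate 1 and ALDOA, HK1, IDH1, LDHA, PFKFB2 and SLC2A1 on replicate 2. For siFoxA1 titles they were GPI, IDH1, LDHB, PDHA1 and SLC2A1 on replicate 1, and ALDOA, ENO2, GPI, IDH2, PC, PDHA1, RPIA and TALDO1 on replicate 2. For replicate 2 against 1 they were IDH1 and PFKFB2 (vehicle titles), ALDOA, PGLS and SLC2A1 (DHT titles), DLD, ENO1, IDH1 and IDH3A (parental titles), and ALDOA, IDH1, IDH3A, PDHA1 and PFKFB3 (siFoxA1 titles). Every other call of a member in these 8 comparisons was lost without at least 1 array, at an adjusted p of up to 0.558. The 7 calls of DHT titles on replicate 1 became 4, 2 and 3 without the arrays vehicle parental, vehicle siFoxA1 and DHT siFoxA1 of replicate 1. The 17 calls of siFoxA1 titles on replicate 1 became 8 without the DEX parental array and 8 without the DEX siFoxA1 array of that number, 11 without the vehicle parental and 11 without the vehicle siFoxA1 array, and the 21 on replicate 2 became 13 without the vehicle siFoxA1 array.

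The first steps of glycolysis bring glucose in and trap it. Array values are given below for vehicle titles against DHT titles in the DHT set and for parental titles against siFoxA1 titles in the DEX set. Within each pair the parental array precedes the siFoxA1 array in the DHT set, and the vehicle array precedes the DEX array in the DEX set. SLC2A1, the basal glucose transporter GLUT1, read 9.89 and 10.04 against 10.37 and 10.39 on the replicate 1 arrays and 10.42 and 10.44 against 10.94 and 11.1 on the replicate 2 arrays of the DHT set. Each DHT-titled array was above both vehicle-titled arrays of its number, and the lowest replicate 2 array was above the highest replicate 1 array. The differences were 0.42 ± 0.13 (adjusted p = 0.0249) for DHT titles on replicate 1 and 0.59 ± 0.13 (adjusted p = 0.00114) on replicate 2. Replicate 2 exceeded replicate 1 by 0.46 ± 0.13 (adjusted p = 0.0157) under vehicle titles and 0.64 ± 0.13 (adjusted p = 0.000646) under DHT titles.

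Hexokinase 1 (HK1), the housekeeping enzyme that phosphorylates glucose, read 11.7 and 11.82 against 11.44 and 11.67 on the replicate 1 arrays and 12.34 and 12.2 against 11.62 and 11.71 on the replicate 2 arrays of the DHT set. Its 2 vehicle-titled arrays of replicate 2 were above the other 6. The DHT title difference on replicate 2 was -0.61 ± 0.12 (adjusted p = 0.000373), and replicate 2 exceeded replicate 1 by 0.51 ± 0.12 (adjusted p = 0.0038) under vehicle titles. HK2, the inducible hexokinase bound to mitochondria in many tumours, read 7.18 and 7.71 against 7.32 and 7.24 on the replicate 1 arrays and 8.19 and 8.44 against 8.07 and 8.26 on the replicate 2 arrays. All replicate 2 arrays were above all replicate 1 arrays, by 0.87 ± 0.2 (adjusted p = 0.00317) under vehicle titles and 0.89 ± 0.2 (adjusted p = 0.00203) under DHT titles, and a second probe gave 0.46 and 0.58. GPI, the isomerase of the next step, read 11.98 and 11.99 against 11.88 and 12.15 on the replicate 1 arrays and 11.84 and 11.8 against 11.63 and 11.68 on the replicate 2 arrays, with replicate 2 lower under DHT titles by -0.36 ± 0.12 (adjusted p = 0.0324). Without the DHT siFoxA1 array of replicate 1 that difference was -0.22 (adjusted p = 0.4).

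SLC2A1 in the DEX set read 10.18 and 10.19 against 11.4 and 11.07 on the replicate 1 arrays and 10.39 and 10.31 against 10.68 and 10.98 on the replicate 2 arrays. Each siFoxA1-titled array was above all 4 parental ones, by 1.05 ± 0.13 (adjusted p = 2.47e-06) on replicate 1 and 0.48 ± 0.13 (adjusted p = 0.00582) on replicate 2. Between numbers SLC2A1 was lower on replicate 2 under siFoxA1 titles by -0.4 ± 0.13 (adjusted p = 0.0253). HK2 read 8.82 and 8.75 against 9.6 and 9.51 on the replicate 1 arrays and 8.04 and 7.97 against 8.25 and 9.19 on the replicate 2 arrays, so that the siFoxA1-titled arrays were above the parental ones of their number and replicate 2 was below replicate 1 for the same title. The siFoxA1 title differences were 0.77 ± 0.2 (adjusted p = 0.0063) and 0.71 ± 0.2 (adjusted p = 0.00912), and the replicate differences -0.78 ± 0.2 (adjusted p = 0.00673) and -0.84 ± 0.2 (adjusted p = 0.00428). The 2 siFoxA1 arrays of replicate 2 were 8.25 and 9.19, so its title difference on replicate 2 moved by a factor over 1.5 without either of them (adjusted p up to 0.475). HK1 read 12.17 and 12.21 against 12.52 and 12.45 on the replicate 1 arrays and 12.17 and 12.16 against 12.34 and 12.31 on the replicate 2 arrays, with siFoxA1 titles higher on replicate 1 by 0.3 ± 0.09 (adjusted p = 0.0159). GPI read 12.33 and 12.31 against 11.79 and 11.71 on the replicate 1 arrays and 12.33 and 12.44 against 11.85 and 11.84 on the replicate 2 arrays, and all 4 siFoxA1-titled arrays were below all 4 parental ones. It was lower by -0.57 ± 0.09 (adjusted p = 1e-04) on replicate 1 and by -0.54 ± 0.09 (adjusted p = 0.000141) on replicate 2.

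**Figure D2:**
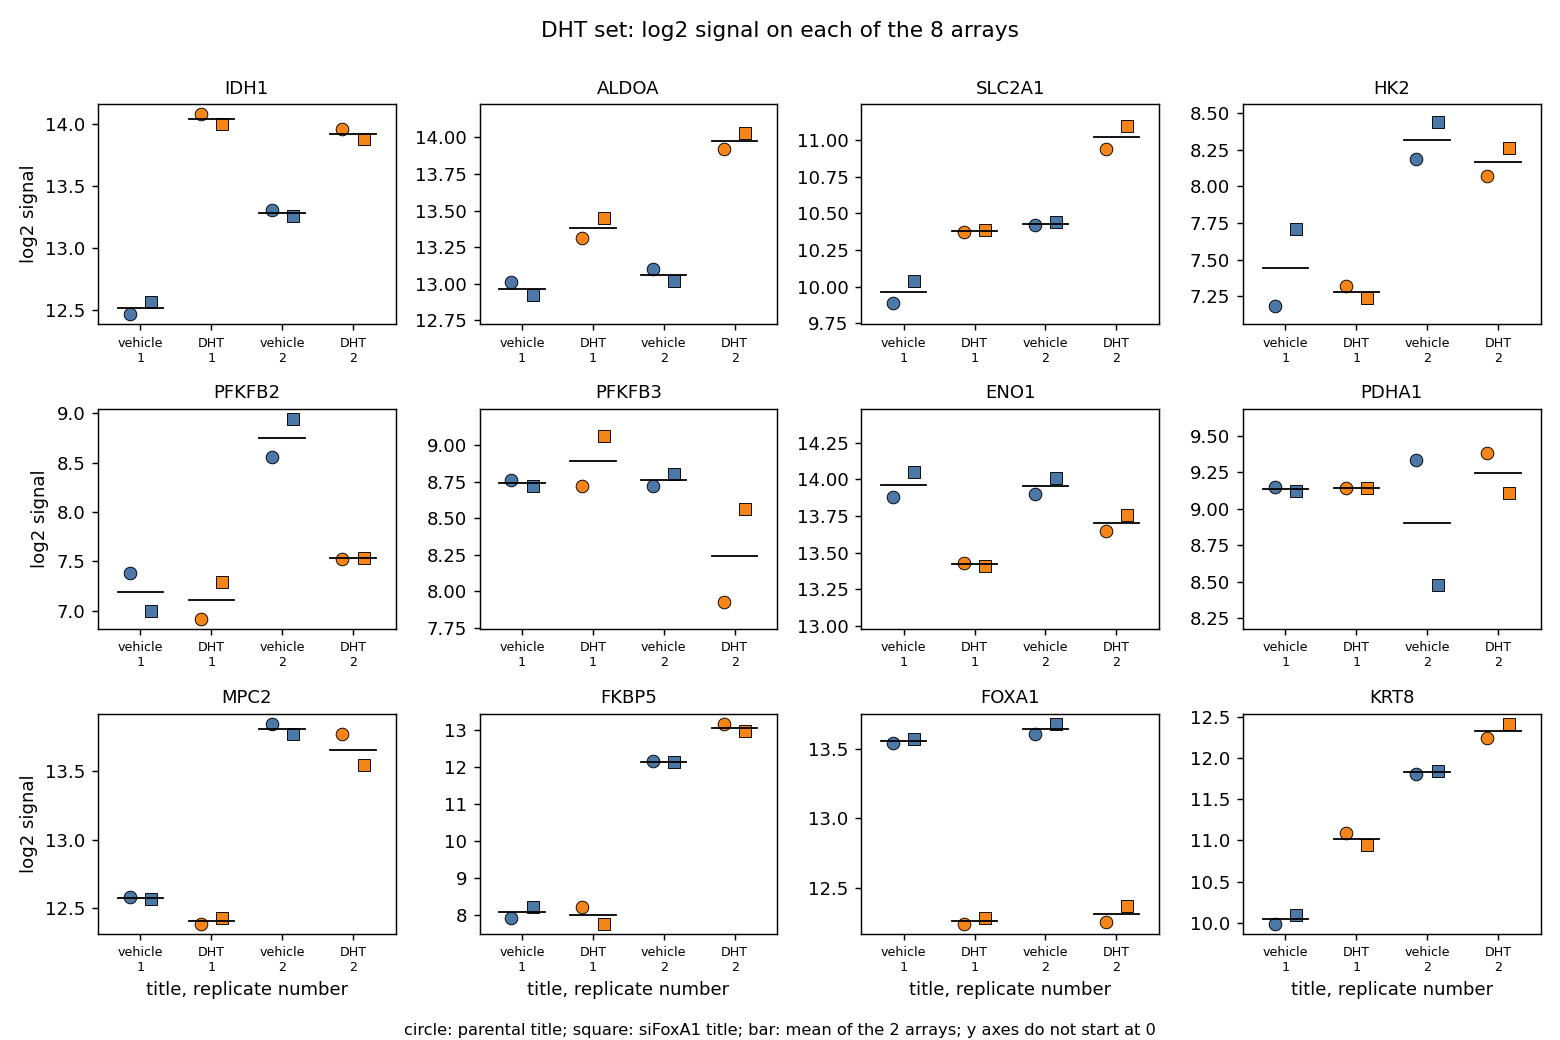
Log2 level of 8 of the members, of the pyruvate carrier gene MPC2 and of FKBP5, FOXA1 and KRT8 on each array of the DHT set, by title and replicate number, where circles are arrays titled parental, squares arrays titled siFoxA1 and bars the mean of 2 arrays, on axes that do not start at 0. IDH1 is higher under DHT titles for both numbers (12.47 and 12.57 against 14.08 and 14.00, and 13.31 and 13.26 against 13.96 and 13.88), while HK2 and FKBP5 are higher on replicate 2 under either title.

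The phosphofructokinase step commits sugar to glycolysis, and its speed follows fructose 2,6-bisphosphate, which the PFKFB enzymes make and remove. PFKFB2, the isoform known from heart and from androgen response in prostate cancer cells, read 7.38 and 7.0 against 6.92 and 7.29 on the replicate 1 arrays and 8.56 and 8.94 against 7.53 and 7.54 on the replicate 2 arrays of the DHT set. The 2 vehicle-titled arrays of replicate 2 were the highest of the 8. Vehicle titles were higher on replicate 2 than on replicate 1 by 1.55 ± 0.22 (adjusted p = 7.08e-06), and on replicate 2 DHT titles were lower than vehicle titles by -1.21 ± 0.22 (adjusted p = 0.000119). The DHT title difference on replicate 1 was -0.09 (adjusted p = 0.82), and a second probe gave -0.37 and -1.08 for the DHT title on replicates 1 and 2. PFKFB3, the isoform that favours the kinase over the phosphatase reaction, read 8.76 and 8.72 against 8.72 and 9.06 on the replicate 1 arrays and 8.72 and 8.8 against 7.93 and 8.56 on the replicate 2 arrays. The DHT parental array of replicate 2 was the lowest of the 8. DHT titles were lower on replicate 2 by -0.52 ± 0.18 (adjusted p = 0.0343), and replicate 2 was lower than replicate 1 under DHT titles by -0.65 ± 0.18 (adjusted p = 0.0104). A second PFKFB3 probe did not show this replicate difference, at 0.1 under DHT titles. The value for DHT titles on replicate 2 was -0.27 (adjusted p = 0.457) without the DHT parental array of replicate 2, and the second PFKFB3 probe gave -0.30 and 0.02 for the DHT title on replicates 1 and 2 where the best probe gave 0.15 and -0.52.

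Of the phosphofructokinase subunits, the muscle form PFKM read 10.8 and 10.51 against 10.65 and 10.51 on the replicate 1 arrays and 10.0 and 10.01 against 9.83 and 10.1 on the replicate 2 arrays of the DHT set. Every replicate 2 array was below every replicate 1 array, by -0.65 ± 0.14 (adjusted p = 0.00223) under vehicle titles and -0.62 ± 0.14 (adjusted p = 0.00251) under DHT titles. The latter was -0.41 (adjusted p = 0.138) when the DHT parental array of replicate 2 was left out. The platelet form PFKP read 10.15 and 9.95 against 9.92 and 9.71 on the replicate 1 arrays and 9.66 and 9.73 against 9.42 and 9.24 on the replicate 2 arrays, and replicate 2 was lower under DHT titles by -0.48 ± 0.15 (adjusted p = 0.0171). The liver form PFKL ranged from 9.08 to 9.67 and passed no test.

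PFKFB3 in the DEX set changed sign between replicate numbers. It read 9.3 and 9.33 against 9.9 and 9.84 on the replicate 1 arrays and 9.05 and 9.06 against 8.28 and 8.58 on the replicate 2 arrays. On replicate 1 the siFoxA1-titled arrays were above the parental ones by 0.56 ± 0.14 (adjusted p = 0.00428), and on replicate 2 they were below them by -0.62 ± 0.14 (adjusted p = 0.0015). Under siFoxA1 titles replicate 2 was lower than replicate 1 by -1.44 ± 0.14 (adjusted p = 1.96e-07). The second probe had the same signs, at 0.38 and -0.11 for the siFoxA1 title. PFKFB2 read 7.45 and 7.54 against 7.82 and 7.45 on the replicate 1 arrays and 7.68 and 8.07 against 7.7 and 7.32 on the replicate 2 arrays and passed no test. PFKM read 11.77 and 11.53 against 11.14 and 11.15 on the replicate 1 arrays and 11.49 and 11.53 against 11.18 and 11.3 on the replicate 2 arrays, lower under siFoxA1 titles on replicate 1 by -0.51 ± 0.11 (adjusted p = 0.00106). PFKP, at 9.78 to 10.74, and PFKL, at 9.08 to 9.58, passed no test in the DEX set.

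The later steps of glycolysis run from aldolase to enolase. ALDOA, the main aldolase, read 13.01 and 12.92 against 13.31 and 13.45 on the replicate 1 arrays and 13.1 and 13.02 against 13.92 and 14.03 on the replicate 2 arrays of the DHT set. All 4 DHT-titled arrays were above all 4 vehicle-titled ones, by 0.42 ± 0.11 (adjusted p = 0.00551) on replicate 1 and 0.92 ± 0.11 (adjusted p = 2.05e-07) on replicate 2. Under DHT titles replicate 2 exceeded replicate 1 by 0.6 ± 0.11 (adjusted p = 0.000138), and a second probe gave 0.65 and 0.88 for the DHT title. ENO1, the main enolase, went the other way and read 13.88 and 14.05 against 13.43 and 13.41 on the replicate 1 arrays and 13.9 and 14.01 against 13.65 and 13.76 on the replicate 2 arrays. All 4 DHT-titled arrays were below all 4 vehicle-titled ones, and the difference was -0.54 ± 0.1 (adjusted p = 3e-04) on replicate 1 and -0.25 (adjusted p = 0.0714) on replicate 2. ENO2, the enolase known from neurons and neuroendocrine cells, read 8.84 and 9.15 against 9.11 and 9.54 on the replicate 1 arrays and 8.08 and 8.57 against 9.17 and 9.14 on the replicate 2 arrays. Its vehicle-titled arrays of replicate 2 were the lowest, and DHT titles were higher by 0.83 ± 0.17 (adjusted p = 0.000469) on replicate 2. Vehicle titles were lower on replicate 2 than on replicate 1 by -0.66 ± 0.17 (adjusted p = 0.00681).

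ALDOC, an aldolase known from brain, read 12.54 and 12.28 against 12.63 and 12.43 on the replicate 1 arrays and 11.99 and 12.26 against 12.5 and 12.6 on the replicate 2 arrays of the DHT set, with DHT titles higher on replicate 2 by 0.43 ± 0.12 (adjusted p = 0.012). That difference was 0.23 (adjusted p = 0.344) without the vehicle parental array of replicate 2. PGAM1, the phosphoglycerate mutase, read 11.87 and 11.56 against 11.58 and 11.73 on the replicate 1 arrays and 11.52 and 11.56 against 11.79 and 12.12 on the replicate 2 arrays, with DHT titles higher on replicate 2 by 0.42 ± 0.13 (adjusted p = 0.0197), and 0.23 (adjusted p = 0.386) without the DHT siFoxA1 array of replicate 2. On replicate 1 its second probe differed in sign from the best probe, at 0.25 against -0.06. PGK1, the first ATP-forming enzyme of the pathway, read 12.46 and 12.29 against 12.89 and 12.57 on the replicate 1 arrays and 12.41 and 12.62 against 12.46 and 12.6 on the replicate 2 arrays. DHT titles were higher on replicate 1 by 0.35 ± 0.12 (adjusted p = 0.0446), a value between 0.16 and 0.54 without the DHT parental or the DHT siFoxA1 array of replicate 1. A second PGK1 probe gave 0.13 there. GAPDH, the dehydrogenase that forms NADH, read 13.85 and 13.6 against 13.62 and 13.63 on the replicate 1 arrays and 13.87 and 13.66 against 13.99 and 13.86 on the replicate 2 arrays, with replicate 2 higher under DHT titles by 0.3 ± 0.1 (adjusted p = 0.0406). Its other probes gave 0.06 and 0.24 there. TPI1 stayed between 13.16 and 13.61 and passed no test.

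The DEX set had ALDOA at 13.07 and 13.13 against 13.39 and 13.36 on the replicate 1 arrays and 13.43 and 13.37 against 13.85 and 14.0 on the replicate 2 arrays. Each siFoxA1-titled array was above both parental arrays of its number, by 0.28 ± 0.09 (adjusted p = 0.0205) and 0.53 ± 0.09 (adjusted p = 8.42e-05). A second ALDOA probe gave 0.08 and 0.45 for the siFoxA1 title. Replicate 2 exceeded replicate 1 by 0.3 ± 0.09 (adjusted p = 0.0162) under parental titles and 0.55 ± 0.09 (adjusted p = 9.92e-05) under siFoxA1 titles. ENO1 read 14.37 and 14.39 against 14.2 and 14.36 on the replicate 1 arrays and 13.73 and 13.86 against 13.83 and 14.05 on the replicate 2 arrays. All replicate 2 arrays were below all replicate 1 arrays, by -0.59 ± 0.08 (adjusted p = 2.67e-05) and -0.34 ± 0.08 (adjusted p = 0.00532). ENO2 read 9.92 and 9.97 against 9.4 and 9.27 on the replicate 1 arrays and 9.99 and 10.29 against 9.35 and 9.5 on the replicate 2 arrays, and the 4 siFoxA1-titled arrays were below the 4 parental ones. It was lower by -0.61 ± 0.13 (adjusted p = 0.00118) on replicate 1 and -0.72 ± 0.13 (adjusted p = 0.000214) on replicate 2.

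ALDOC in the DEX set read 12.78 and 12.69 against 12.73 and 12.51 on the replicate 1 arrays and 12.99 and 13.03 against 12.86 and 13.0 on the replicate 2 arrays, and replicate 2 exceeded replicate 1 by 0.28 ± 0.1 (adjusted p = 0.0418) under parental and 0.31 ± 0.1 (adjusted p = 0.0235) under siFoxA1 titles. PGK1 read 13.13 and 13.04 against 13.21 and 13.04 on the replicate 1 arrays and 12.83 and 12.94 against 13.11 and 13.42 on the replicate 2 arrays, with siFoxA1 titles higher on replicate 2 by 0.38 ± 0.1 (adjusted p = 0.00758). A second PGK1 probe did not show this, at 0.06 and 0 for the siFoxA1 title on replicates 1 and 2. TPI1, the isomerase that interconverts the split sugars, read 13.6 and 13.69 against 13.58 and 13.33 on the replicate 1 arrays and 13.77 and 13.69 against 13.68 and 13.85 on the replicate 2 arrays, with replicate 2 higher under siFoxA1 titles by 0.31 ± 0.1 (adjusted p = 0.025). GAPDH read 14.12 and 14.27 against 13.93 and 13.95 on the replicate 1 arrays and 14.19 and 14.17 against 14.02 and 14.22 on the replicate 2 arrays, with siFoxA1 titles lower on replicate 1 by -0.25 ± 0.09 (adjusted p = 0.0317). Its other probes gave -0.31 and -0.45 on replicate 1. On replicate 2 they gave -0.31 and -0.4, where the best probe gave -0.06. ALDOC and TPI1 under siFoxA1 titles and PGK1 moved by a factor over 1.5 when 1 siFoxA1-titled array was left out (adjusted p up to 0.48). PGAM1, at 11.72 to 12.13, passed no test there.

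Pyruvate leaves glycolysis through lactate dehydrogenase or enters the mitochondrion and pyruvate dehydrogenase. LDHA, the subunit that favours lactate, read 12.66 and 12.5 against 12.76 and 12.48 on the replicate 1 arrays and 12.6 and 12.52 against 13.2 and 12.99 on the replicate 2 arrays of the DHT set. The 2 DHT-titled arrays of replicate 2 were the highest of the 8. DHT titles were higher on replicate 2 by 0.54 ± 0.11 (adjusted p = 0.000458), and replicate 2 was higher under DHT titles by 0.47 ± 0.11 (adjusted p = 0.00216). On another probe LDHA of the DEX set read 13.96 and 13.87 against 13.93 and 13.74 on the replicate 1 arrays and 13.68 and 13.7 against 13.03 and 13.53 on the replicate 2 arrays. The vehicle siFoxA1 array of replicate 2 was the lowest, and siFoxA1 titles were lower on replicate 2 by -0.41 ± 0.12 (adjusted p = 0.0107). Replicate 2 was lower under siFoxA1 titles by -0.55 ± 0.12 (adjusted p = 0.00168), and both of these differences moved by a factor over 1.5 without either siFoxA1 array of replicate 2 (adjusted p up to 0.481). LDHB, the subunit that favours pyruvate, read 11.2 and 11.42 against 10.77 and 10.62 on the replicate 1 arrays and 10.8 and 10.73 against 10.35 and 10.47 on the replicate 2 arrays of the DEX set. Each siFoxA1-titled array was below both parental arrays of its number, by -0.62 ± 0.11 (adjusted p = 0.000315) and -0.36 ± 0.11 (adjusted p = 0.0176). Replicate 2 was lower under parental titles by -0.54 ± 0.11 (adjusted p = 0.00131). LDHB of the DHT set lay between 8.55 and 9.26 and passed no test.

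PDHA1, the catalytic subunit of pyruvate dehydrogenase, had the largest siFoxA1 title difference of the members in the DEX set. It read 10.37 and 10.27 against 11.52 and 11.49 on the replicate 1 arrays and 10.6 and 10.52 against 12.47 and 12.13 on the replicate 2 arrays. Every siFoxA1-titled array was at least as high as 11.49, and no parental one exceeded 10.60. The differences were 1.18 ± 0.11 (adjusted p = 3.66e-08) on replicate 1 and 1.74 ± 0.11 (adjusted p = 8.36e-11) on replicate 2, and replicate 2 exceeded replicate 1 under siFoxA1 titles by 0.8 ± 0.11 (adjusted p = 1.26e-05). PDHA1 of the DHT set ranged from 8.48 to 9.38 and passed no test. PDK1, the kinase that phosphorylates this subunit, was detected on 1 of 8 arrays of the DHT set, with values from 4.78 to 6.33, and on 0 of 8 of the DEX set, from 4.52 to 5.51.

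**Figure D3:**
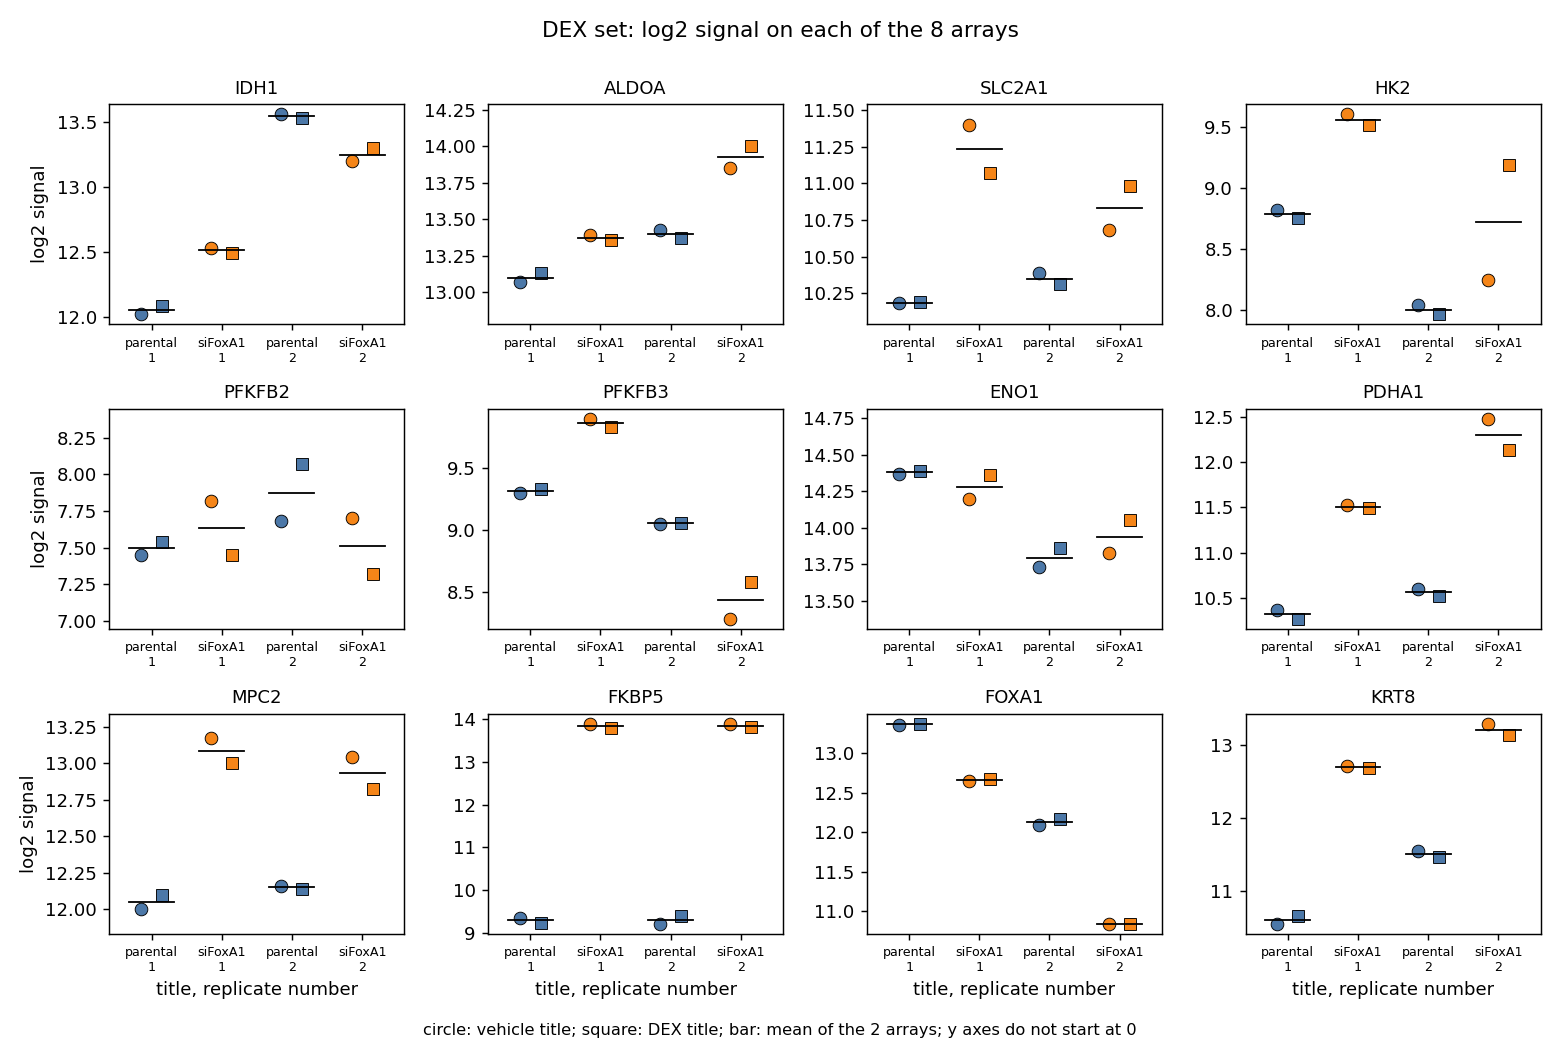
Log2 level of the same genes on each array of the DEX set, by title and replicate number, where circles are arrays titled vehicle, squares arrays titled DEX and bars the mean of 2 arrays, on axes that do not start at 0. PDHA1, SLC2A1 and MPC2 are higher under siFoxA1 titles for both numbers, PFKFB3 is higher under siFoxA1 titles on replicate 1 (9.90 and 9.84 against 9.30 and 9.33) and lower on replicate 2 (8.28 and 8.58 against 9.05 and 9.06), and circles and squares of a column lie close together for most genes.

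Of the 5 pentose phosphate members 3 were called in the DHT set, each in 1 comparison, and 2 passed no test, where 55.4% of all genes passed none. PGD, which makes NADPH in the oxidative branch, read 11.36 and 11.3 against 11.56 and 11.79 on the replicate 1 arrays and 11.55 and 11.48 against 11.41 and 11.48 on the replicate 2 arrays there. DHT titles were higher on replicate 1 by 0.35 ± 0.12 (adjusted p = 0.0434), which became 0.23 (adjusted p = 0.418) without the DHT siFoxA1 array of replicate 1. PGLS, the lactonase before it, read 10.68 and 10.33 against 10.86 and 10.59 on the replicate 1 arrays and 10.36 and 10.23 against 10.29 and 9.97 on the replicate 2 arrays. Under DHT titles replicate 2 was below replicate 1 by -0.6 ± 0.13 (adjusted p = 0.00138). TALDO1, the transaldolase that returns sugars to glycolysis, read 13.05 and 12.99 against 12.95 and 12.76 on the replicate 1 arrays and 13.29 and 13.35 against 13.23 and 13.46 on the replicate 2 arrays, and replicate 2 was higher under DHT titles by 0.49 ± 0.11 (adjusted p = 0.00212). RPIA, at 8.42 to 9.12, and TKT, at 13.01 to 13.46, passed no test in the DHT set.

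TALDO1 of the DEX set read 12.93 and 12.91 against 13.12 and 13.3 on the replicate 1 arrays and 12.72 and 12.66 against 13.51 and 13.51 on the replicate 2 arrays. The 4 siFoxA1-titled arrays were above the 4 parental ones, by 0.29 ± 0.09 (adjusted p = 0.0198) on replicate 1 and 0.83 ± 0.09 (adjusted p = 4.44e-07) on replicate 2, and without the DEX siFoxA1 array of replicate 1 the first moved by a factor over 1.5 (adjusted p = 0.329). Under siFoxA1 titles replicate 2 was higher by 0.3 ± 0.09 (adjusted p = 0.0175). RPIA, the isomerase that makes ribose 5-phosphate, went the other way and read 9.42 and 9.3 against 8.93 and 9.14 on the replicate 1 arrays and 9.62 and 9.6 against 8.77 and 8.83 on the replicate 2 arrays. All siFoxA1-titled arrays were below all parental ones, with a difference of -0.33 (adjusted p = 0.075) on replicate 1 and -0.81 ± 0.14 (adjusted p = 9.88e-05) on replicate 2. TKT, the transketolase of the same branch, read 12.96 and 13.01 against 13.04 and 13.17 on the replicate 1 arrays and 12.99 and 12.98 against 13.35 and 13.29 on the replicate 2 arrays, higher under siFoxA1 titles on replicate 2 by 0.34 ± 0.09 (adjusted p = 0.00539). PGLS read 9.93 and 10.07 against 9.7 and 9.57 on the replicate 1 arrays and 10.13 and 9.84 against 9.58 and 9.73 on the replicate 2 arrays, lower under siFoxA1 titles on replicate 1 by -0.36 ± 0.13 (adjusted p = 0.0444). PGD read 11.04 and 11.21 against 10.92 and 10.94 on the replicate 1 arrays and 11 and 10.86 against 10.94 and 10.99 on the replicate 2 arrays and passed no test. Of the 5 members, 2 were thus higher and 1 lower under siFoxA1 titles on replicate 2, and 1 was higher and 1 lower on replicate 1. Of all genes, 15.4% were higher and 19.1% lower on replicate 2, and 14.4% and 16.6% on replicate 1.

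In the citrate cycle, IDH1 had the largest DHT title difference of the 39 members on replicate 1. This enzyme of cytosol and peroxisomes converts isocitrate to 2-oxoglutarate and makes NADPH. It read 12.47 and 12.57 against 14.08 and 14.0 on the replicate 1 arrays and 13.31 and 13.26 against 13.96 and 13.88 on the replicate 2 arrays of the DHT set. All 4 DHT-titled arrays were above all 4 vehicle-titled ones, by 1.53 ± 0.1 (adjusted p = 1.24e-11) on replicate 1 and 0.64 ± 0.1 (adjusted p = 3.56e-05) on replicate 2. Under vehicle titles replicate 2 exceeded replicate 1 by 0.77 ± 0.1 (adjusted p = 4.53e-06), while under DHT titles the difference was -0.12 (adjusted p = 0.47). The second probe gave 2.13 and 0.95 for the DHT title. IDH1 of the DEX set read 12.02 and 12.08 against 12.53 and 12.49 on the replicate 1 arrays and 13.56 and 13.53 against 13.2 and 13.3 on the replicate 2 arrays. All replicate 2 arrays were above all replicate 1 arrays, by 1.49 ± 0.09 (adjusted p = 1.27e-10) under parental and 0.74 ± 0.09 (adjusted p = 3.19e-06) under siFoxA1 titles. The siFoxA1-titled arrays were above the parental ones on replicate 1, by 0.46 ± 0.09 (adjusted p = 0.000501), and below them on replicate 2, by -0.29 ± 0.09 (adjusted p = 0.0145).

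IDH2, its mitochondrial counterpart, read 10.07 and 10.05 against 10.22 and 10.42 on the replicate 1 arrays and 10.43 and 10.31 against 9.7 and 9.84 on the replicate 2 arrays of the DHT set. The DHT title difference was 0.26 (adjusted p = 0.208) on replicate 1, and on replicate 2 DHT titles were lower by -0.6 ± 0.14 (adjusted p = 0.00193). Replicate 2 was lower than replicate 1 under DHT titles by -0.55 ± 0.14 (adjusted p = 0.00516). IDH2 of the DEX set read 10.63 and 10.88 against 10.35 and 10.53 on the replicate 1 arrays and 10.82 and 10.62 against 10.15 and 10.16 on the replicate 2 arrays, lower under siFoxA1 titles on replicate 2 by -0.56 ± 0.12 (adjusted p = 0.00113). IDH3A, the catalytic subunit of the NAD-dependent enzyme, read 8.48 and 9.02 against 8.18 and 8.37 on the replicate 1 arrays and 9.41 and 9.77 against 8.88 and 9.17 on the replicate 2 arrays of the DEX set. It was lower under siFoxA1 titles by -0.47 ± 0.14 (adjusted p = 0.0172) and -0.56 ± 0.14 (adjusted p = 0.00461), and higher on replicate 2 by 0.84 ± 0.14 (adjusted p = 0.000194) and 0.75 ± 0.14 (adjusted p = 0.000672) under parental and siFoxA1 titles. Its DHT set values ranged from 8.49 to 9.52 and passed no test.

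Malic enzyme, pyruvate carboxylase and malate dehydrogenase link the cycle to pyruvate. ME1, the cytosolic malic enzyme that makes NADPH for fatty acid synthesis, read 8.22 and 7.89 against 8.78 and 8.69 on the replicate 1 arrays and 7.92 and 7.91 against 8.75 and 8.35 on the replicate 2 arrays of the DHT set. Every DHT-titled array was above every vehicle-titled one, by 0.68 ± 0.18 (adjusted p = 0.0079) and 0.63 ± 0.18 (adjusted p = 0.0107). The DEX set had it at 9.62 and 9.72 against 9.6 and 9.68 on the replicate 1 arrays and 9.24 and 9.38 against 9.95 and 9.67 on the replicate 2 arrays, with siFoxA1 titles higher on replicate 2 by 0.5 ± 0.13 (adjusted p = 0.0059), which moved by a factor over 1.5 without the vehicle siFoxA1 array of that number (adjusted p = 0.188). PC, the carboxylase that refills the cycle, read 8.81 and 8.69 against 8.63 and 8.87 on the replicate 1 arrays and 8.97 and 9.0 against 9.13 and 9.5 on the replicate 2 arrays of the DHT set, and replicate 2 was higher under DHT titles by 0.56 ± 0.17 (adjusted p = 0.0159). PC of the DEX set read 8.41 and 8.29 against 8.81 and 8.87 on the replicate 1 arrays and 8.29 and 8.03 against 9.14 and 9.05 on the replicate 2 arrays, and the 4 siFoxA1-titled arrays were above the 4 parental ones. The differences were 0.49 ± 0.15 (adjusted p = 0.0174) on replicate 1 and 0.93 ± 0.15 (adjusted p = 6.61e-05) on replicate 2, with 0.75 and 1.01 from a second probe. The cytosolic malate dehydrogenase MDH1 read 12.84 and 12.93 against 13.27 and 13.13 on the replicate 1 arrays and 13.21 and 13.3 against 13.69 and 13.4 on the replicate 2 arrays of the DEX set. It was higher under siFoxA1 titles by 0.32 ± 0.1 (adjusted p = 0.0196) and 0.29 ± 0.1 (adjusted p = 0.0292), and higher on replicate 2 by 0.37 ± 0.1 (adjusted p = 0.00863) under parental and 0.35 ± 0.1 (adjusted p = 0.0153) under siFoxA1 titles. Leaving out the vehicle siFoxA1 array of replicate 2 moved its differences on replicate 2 and under siFoxA1 titles by over 1.5 times (adjusted p up to 0.446). MDH1 of the DHT set stayed within 12.67 to 12.85 and passed no test.

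The remaining enzymes of the cycle are mitochondrial, except ACO1. DLD, the dehydrogenase subunit that pyruvate and 2-oxoglutarate dehydrogenase share, read 9.95 and 9.88 against 10.26 and 10.12 on the replicate 1 arrays and 9.95 and 9.54 against 10.32 and 10.25 on the replicate 2 arrays of the DHT set, with DHT titles higher on replicate 2 by 0.54 ± 0.14 (adjusted p = 0.00504). OGDH, the first subunit of 2-oxoglutarate dehydrogenase, read 9.51 and 9.23 against 9.22 and 9.22 on the replicate 1 arrays and 9.36 and 9.85 against 8.86 and 9.19 on the replicate 2 arrays, with DHT titles lower on replicate 2 by -0.58 ± 0.17 (adjusted p = 0.0124). Without the vehicle siFoxA1 array of replicate 2 that difference was -0.35 (adjusted p = 0.322). The cytosolic aconitase ACO1, also an iron sensor, read 11.48 and 11.47 against 11.48 and 11.4 on the replicate 1 arrays and 11.03 and 11.07 against 11.36 and 11.27 on the replicate 2 arrays, with replicate 2 lower under vehicle titles by -0.43 ± 0.12 (adjusted p = 0.0156). DLD of the DEX set read 10.89 and 10.86 against 10.89 and 11.08 on the replicate 1 arrays and 11.24 and 11.56 against 11.49 and 11.44 on the replicate 2 arrays, and all replicate 2 arrays were above all replicate 1 arrays, by 0.53 ± 0.11 (adjusted p = 0.00135) and 0.48 ± 0.11 (adjusted p = 0.00294). SDHA, the flavoprotein of succinate dehydrogenase, read 10.93 and 11.05 against 10.82 and 10.83 on the replicate 1 arrays and 11.43 and 11.31 against 11.17 and 11.07 on the replicate 2 arrays, higher on replicate 2 by 0.38 ± 0.1 (adjusted p = 0.0106) and 0.3 ± 0.1 (adjusted p = 0.0458). The succinyl-CoA ligase subunits were lower under siFoxA1 titles on replicate 2. SUCLG1 read 11.76 and 11.79 against 11.58 and 11.56 on the replicate 1 arrays and 11.99 and 12.2 against 11.72 and 11.8 on the replicate 2 arrays, lower by -0.34 ± 0.1 (adjusted p = 0.01), and it was higher on replicate 2 under parental titles by 0.32 ± 0.1 (adjusted p = 0.0201). SUCLG2 read 11.58 and 11.65 against 11.39 and 11.32 on the replicate 1 arrays and 11.68 and 11.86 against 11.58 and 11.15 on the replicate 2 arrays, lower by -0.4 ± 0.12 (adjusted p = 0.0136), a value that moved by a factor over 1.5 without either siFoxA1 array or the DEX parental array of that number (adjusted p up to 0.431). MDH2, the mitochondrial malate dehydrogenase, read 14.31 and 14.42 against 14.4 and 14.23 on the replicate 1 arrays and 14.61 and 14.44 against 14.56 and 14.6 on the replicate 2 arrays, higher on replicate 2 under siFoxA1 titles by 0.26 ± 0.09 (adjusted p = 0.0387). Citrate synthase (CS), which starts the cycle, passed no test in either set, with ranges of 12.03 to 12.36 and, on another probe of the DEX set, of 12.37 to 12.55.

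Of the 39 members, 13 passed no test in the DHT set, 4 of glycolysis, 2 of the pentose phosphate pathway and 7 of the citrate cycle. That is 33.3% of the members, against 55.4% of all genes over the same 11 comparisons, where genes needed detection on only 2 arrays while all members were detected on 8. MDH1 varied least among them, by 0.18 over the 8 arrays, and IDH3A most, by 1.03. SDHA (10.31 to 10.68), SUCLG1 (11.31 to 11.62), SUCLG2 (10.15 to 10.61) and MDH2 (14.09 to 14.35) were among them. Of the DEX set, 8 members passed no test, 4, 1 and 3 of the 3 pathways, or 20.5% against 43.2% of all genes, from CS with a range of 0.18 to PFKP with one of 0.96. OGDH there lay between 9.69 and 10.26 and ACO1 between 11.59 and 11.96.

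How far the title differences of both numbers matched can be read member by member. On replicates 1 and 2 of the DHT set, whose arrays are different, IDH1, ME1, ALDOA and SLC2A1 were called for the DHT title in both, which is 57.1% of the 7 and 28.6% of the 14, all 4 higher. Over all genes the calls in both made up 55.6% and 43.3%, and 95.2% of them had the same direction. For the siFoxA1 title in the DEX set 13 members were called in both, 76.5% of the 17 and 61.9% of the 21, and 11 of the 13 had the same direction, where all genes gave 66.0% and 59.4%, with 2207 of 2253 in the same direction. IDH1 and PFKFB3 had opposite directions. The tests of the difference between numbers called 4 members in each set, 10.3%, against 7.24% of all genes (DHT set) and 5.09% (DEX set). Of those in the DHT set, against 3.07% of all genes higher and 4.18% lower, the DHT title difference was smaller on replicate 2 for IDH1, by -0.89 ± 0.15 (adjusted p = 0.000222), lower for IDH2, by -0.86 ± 0.2 (adjusted p = 0.00605), and for PFKFB2, by -1.12 ± 0.31 (adjusted p = 0.0244), and larger for ALDOA, by 0.5 ± 0.15 (adjusted p = 0.0425). Of those in the DEX set, against 2.26% higher and 2.83% lower, the siFoxA1 title difference was lower on replicate 2 for IDH1, by -0.75 ± 0.13 (adjusted p = 0.000861), and for PFKFB3, by -1.18 ± 0.2 (adjusted p = 0.00084), and higher for PDHA1, by 0.56 ± 0.15 (adjusted p = 0.0337), and TALDO1, by 0.54 ± 0.13 (adjusted p = 0.0135). Only IDH1 in the DHT set and IDH1 and PFKFB3 in the DEX set held without any single array.

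**Figure D4:**
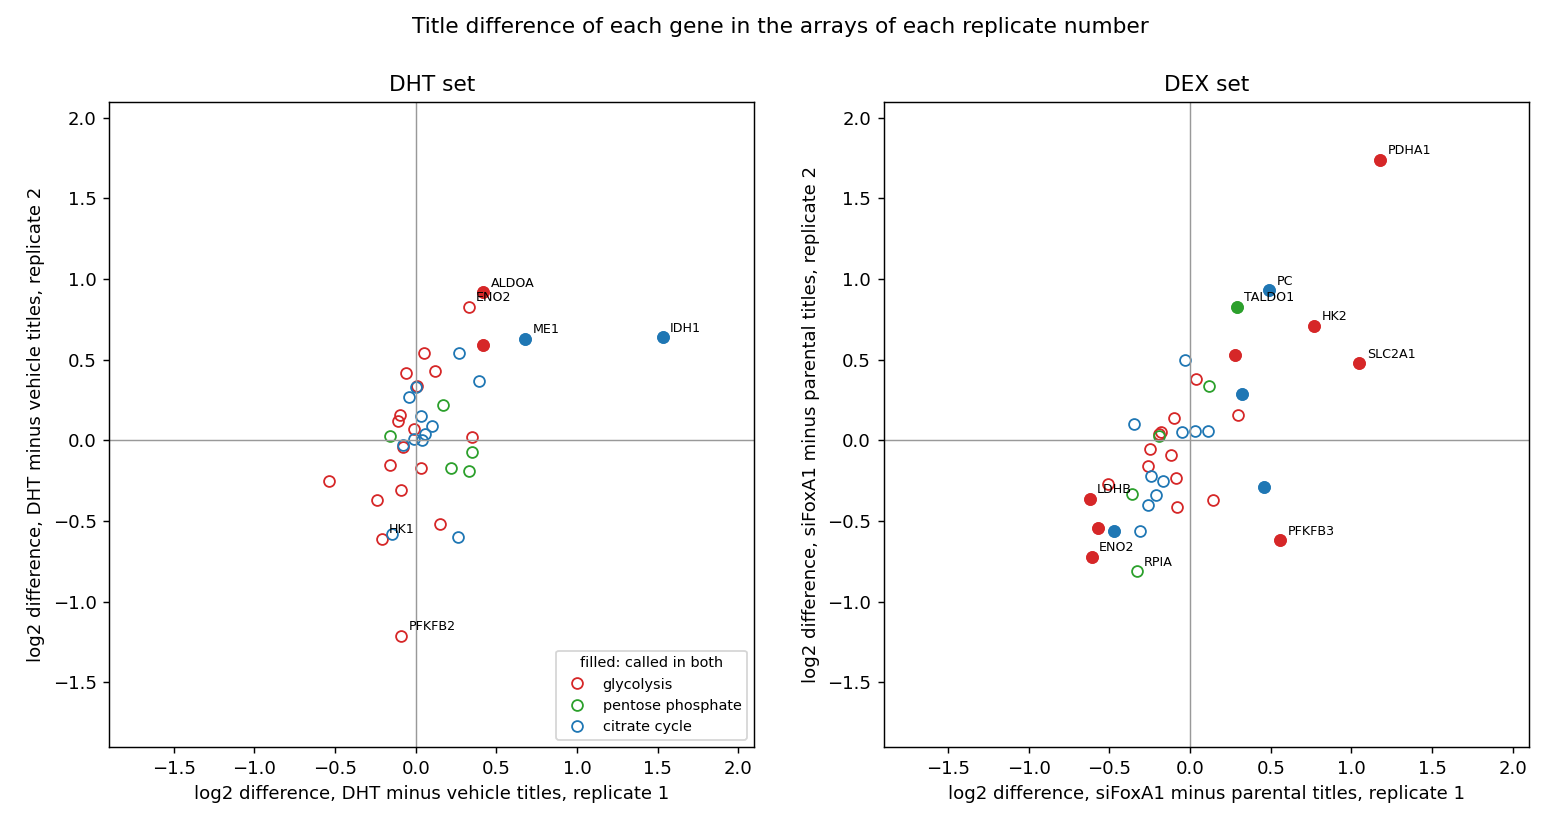
Log2 difference between titles on the replicate 1 arrays (x axis) and on the replicate 2 arrays (y axis) for each of the 39 members, DHT minus vehicle titles in the DHT set and siFoxA1 minus parental titles in the DEX set, coloured by pathway and filled where called on both numbers. IDH1 lies at 1.53 and 0.64 in the DHT set, PDHA1 at 1.18 and 1.74 in the DEX set, and PFKFB3 at 0.56 and -0.62 in the DEX set lies on opposite sides of 0.

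The comparisons in which the checking genes differed can be set side by side across sets, which share no arrays, for members chosen after their values were seen. FOXA1 was lower for the DHT title in the DHT set, by -1.29 and -1.34 on replicates 1 and 2, and for replicate 2 in the DEX set, by -1.23 and -1.82 under parental and siFoxA1 titles. In the same comparisons IDH1 differed by 1.53, 0.64, 1.49 and 0.74, and ALDOA by 0.42, 0.92, 0.3 and 0.55, all 8 called. ENO1 differed there by -0.54, -0.25, -0.59 and -0.34, of which the second was not called. FOXA1 was also lower under siFoxA1 titles in the DEX set, by -0.71 and -1.29 on replicates 1 and 2, and there IDH1 and ENO1 did not keep the directions above. IDH1 differed by 0.46 and -0.29, both called, ALDOA by 0.28 and 0.53, both called, and ENO1 by -0.1 and 0.14, neither called. FKBP5 was higher on replicate 2 in the DHT set, by 4.08 and 5.08 under vehicle and DHT titles, and under siFoxA1 titles in the DEX set, by 4.56 and 4.54. There HK2 differed by 0.87, 0.89, 0.77 and 0.71, and SLC2A1 by 0.46, 0.64, 1.05 and 0.48, all 8 called. FKBP5 was also higher for the DHT title on replicate 2, by 0.92, where SLC2A1 differed by 0.59, which was called, and HK2 by -0.15, which was not. PDHA1 was not called on replicate 2 against 1 of the DHT set, at -0.23 and 0.1, against 1.18 and 1.74 under siFoxA1 titles of the DEX set. These members were also called where the checking gene was not. SLC2A1 differed by 0.42 for the DHT title on replicate 1, where FKBP5 differed by -0.09. Under siFoxA1 titles of the DEX set SLC2A1 was called lower on replicate 2 (mean 10.83) than on replicate 1 (mean 11.24), where FKBP5 differed by 0. HK2 differed by -0.78 and -0.84 on replicate 2 of the DEX set, where FKBP5 differed by 0.01 and 0. On replicate 2 of the DHT set IDH1 differed by 0.77 under vehicle titles and ALDOA by 0.6 under DHT titles. FOXA1 differed there by 0.09 and 0.05. KRT8 was higher in all 8 of the comparisons of the second fit between titles or numbers, by 1.78, 1.31, 2.1 and 1.71 in the FKBP5 comparisons and by 0.97, 0.5, 0.9 and 0.51 in the others. Other luminal markers followed it in some of these comparisons only. Replicate 2 exceeded replicate 1 in KRT18 under vehicle, DHT and siFoxA1 titles, by 0.96, 0.95 and 0.71, and KRT18 was not called in the others. STEAP2 was called higher on replicate 2 than on replicate 1 under DHT titles, by 1.11. It was also higher under siFoxA1 titles of the DEX set, by 0.68 and 0.44. STEAP2 was lower for the DHT title, by -1.39 and -0.52, and on replicate 2 of the DEX set, by -1.29 and -1.53. HOXB13 was lower under siFoxA1 titles of the DEX set, by -0.92 and -0.62. EPCAM was lower for the siFoxA1 title on replicate 2 of that set, by -0.37, and on replicate 2 against 1 under siFoxA1 titles, by -0.43. In the DHT set EPCAM was lower for the DHT title on replicate 2, by -0.57, and on replicate 2 against 1 under DHT titles, by -0.42. The stroma gene VIM was higher on replicate 2 of the DEX set, by 0.6 under parental and 0.53 under siFoxA1 titles. It was not called in the other comparisons of the second fit. The part of these markers in the members' values was not tested. HBB was detected on the siFoxA1 arrays of replicate 2 in the DEX set only, where the summed blood and endothelium markers reached 8.96 to 9.02 against 6.23 to 6.61 on the other arrays, and their part in the calls of those arrays was not tested.

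Other genes of the same pathways were counted from lists that do not overlap the members. Of all genes, 9.68% were higher and 10.5% lower for DHT titles on replicate 1, and 11.6% and 14.3% on replicate 2. For siFoxA1 titles of the DEX set the shares were 14.4% and 16.6%, and 15.4% and 19.1%. Between numbers they were 7.59% and 7.02% (vehicle), 9.59% and 11.2% (DHT), 11.7% and 13.2% (parental), and 11.2% and 12.9% (siFoxA1 titles). The counts of all lists below, of few genes each, stand beside these shares. Of 33 other genes of glycolysis and pyruvate handling, 18 had a test among the DHT set's genes and 20 among those of the DEX set. For DHT titles 2 of 18 were higher and 4 lower on replicate 1, and 2 were higher and 3 lower on replicate 2. SLC2A12, a glucose transporter known as GLUT12, read 8.37 and 8.14 against 6.42 and 5.53 on the replicate 1 arrays and 9.67 and 9.7 against 7.14 and 7.18 on the replicate 2 arrays, with differences of -2.28 ± 0.22 and -2.53 ± 0.22, and its DHT siFoxA1 array of replicate 1 was below detection. For replicate 2 against 1 in the DHT set 3 were higher and 1 lower under vehicle titles and 4 and 1 under DHT titles. SLC2A12 was higher by 1.44 ± 0.22 and 1.19 ± 0.22, and SLC2A3, the neuronal glucose transporter GLUT3, by 1.43 ± 0.22 and 0.81 ± 0.22. MPC2, a subunit of the carrier that takes pyruvate into mitochondria, read 12.58 and 12.57 against 12.39 and 12.43 on the replicate 1 arrays and 13.84 and 13.77 against 13.77 and 13.54 on the replicate 2 arrays and differed by 1.23 ± 0.11 (adjusted p = 2.3e-09) and 1.24 ± 0.11 (adjusted p = 1.53e-09). Under siFoxA1 titles of the DEX set 1 of 20 was higher and 4 lower on replicate 1, and 1 higher and 2 lower on replicate 2. MPC2 was the higher one in both and read 12 and 12.1 against 13.17 and 13.0 on the replicate 1 arrays and 12.16 and 12.14 against 13.04 and 12.82 on the replicate 2 arrays, with differences of 1.03 ± 0.1 (adjusted p = 7.56e-08) and 0.78 ± 0.1 (adjusted p = 2.67e-06). It was also called between the titled groups of the first fit, at 1.02 (adjusted p = 0.00693) under vehicle and 0.79 (adjusted p = 0.0218) under DEX titles. For replicate 2 against 1 in the DEX set 7 were higher and 4 lower under parental titles and 5 and 4 under siFoxA1 titles, with SLC2A12 lower in both, by -1.99 ± 0.25 and -2.39 ± 0.25. SLC2A12 was detected there on every replicate 1 array but, among the replicate 2 arrays, only on the DEX parental one. It thus passed the detection filter through the replicate number where it was higher, and these differences are largely against undetected signal. PKLR was among the 7, by 1.83 ± 0.38, and among the 2 lower under siFoxA1 titles on replicate 2, by -1.5 ± 0.38. It was detected on the 2 parental arrays of replicate 2 only, so it passed the detection filter through the cell where it was higher.

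Of 10 other pentose phosphate genes 7 were tested in each set. DERA, a deoxyribose phosphate aldolase, was higher under siFoxA1 titles of the DEX set by 1.12 ± 0.12 (adjusted p = 5.47e-07) and 2.54 ± 0.12 (adjusted p = 1.62e-12), and H6PD, which oxidises glucose 6-phosphate in the endoplasmic reticulum, by 1.5 ± 0.22 (adjusted p = 2.83e-05) and 0.72 ± 0.22 (adjusted p = 0.0153). In all, 2 were higher and 2 lower on replicate 1 and 3 higher and 0 lower on replicate 2. For the DHT title 0 were higher and 3 lower on replicate 1 and 2 higher and 1 lower on replicate 2. PRPS1, which makes the activated ribose of nucleotide synthesis, was lower in both, by -0.7 ± 0.14 (adjusted p = 0.000598) and -1.09 ± 0.14 (adjusted p = 9.96e-07). Between numbers 1 was higher and 1 lower under vehicle, DHT and parental titles alike, and 5 were higher and 0 lower under siFoxA1 titles of the DEX set. Of 17 other citrate cycle genes 14 were tested in each set. GOT1, the cytosolic aspartate aminotransferase, was higher under siFoxA1 titles by 0.82 ± 0.1 (adjusted p = 2.16e-06) and 1.07 ± 0.1 (adjusted p = 4.4e-08), and SLC25A10, which carries dicarboxylates across the inner membrane, was lower by -0.84 ± 0.12 (adjusted p = 3.16e-05) and -0.92 ± 0.12 (adjusted p = 8.09e-06), among 2 higher and 5 lower on replicate 1 and 3 and 5 on replicate 2. SLC25A10 was lower for the DHT title too, by -0.93 ± 0.15 (adjusted p = 5.2e-05) and -0.71 ± 0.15 (adjusted p = 0.000901), among 2 higher and 2 lower on replicate 1 and 0 and 2 on replicate 2. Between numbers 1 was higher and 1 lower under vehicle titles and 0 and 1 under DHT titles, and in the DEX set 2 and 2 under parental and 3 and 3 under siFoxA1 titles.

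Several glycolytic genes are known targets of the hypoxia-inducible factors, so 15 hypoxia-responsive genes outside these pathways were counted beside them. Of the DHT set's genes 10 were tested, of which 4 were higher and 1 lower for DHT titles on replicate 1, and 5 higher and 2 lower on replicate 2. Of all genes, 9.68% were higher and 10.5% lower on replicate 1 and 11.6% and 14.3% on replicate 2. HIF1A, the inducible subunit itself, was higher by 0.86 ± 0.2 (adjusted p = 0.00241) and 1.43 ± 0.2 (adjusted p = 3.14e-06). P4HA2, a collagen prolyl hydroxylase, was lower by -1.14 ± 0.23 (adjusted p = 0.000517) and -0.92 ± 0.23 (adjusted p = 0.00301). Of the DEX set's genes 13 were tested, of which 5 were higher and 0 lower under siFoxA1 titles on replicate 1 and 4 higher and 1 lower on replicate 2. Of all genes, 14.4% were higher and 16.6% lower on replicate 1 and 15.4% and 19.1% on replicate 2. EPAS1 was among the higher ones on both numbers, by 1.11 ± 0.32 and 3.15 ± 0.32. It was detected on the 4 siFoxA1-titled arrays only, so it passed the detection filter through the titles where it was higher. The list's medians below include EPAS1. CA12, a membrane carbonic anhydrase, was higher by 2.2 ± 0.13 (adjusted p = 4.35e-11) and 1.9 ± 0.13 (adjusted p = 3.9e-10), and P4HA2 by 1.21 ± 0.19 (adjusted p = 4.58e-05) and 2.42 ± 0.19 (adjusted p = 2.81e-09). The list's median difference was 0.42 and 0.20 there, beside -0.10 and -0.05 for the 39 members. Between replicate numbers the counts differed by set. Replicate 2 was higher in 3 and lower in 0 of the 10 under vehicle titles and in 5 and 1 under DHT titles of the DHT set. In the DEX set it was higher in 3 and lower in 3 of the 13 under parental titles (median -0.02), and higher in 1 and lower in 6 under siFoxA1 titles (median -0.32).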

How the data were processed

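RNA from LNCaP-1F5 cells was labelled and hybridised to Illumina HumanHT-12 arrays, version 3 (DHT set) and version 4 (DEX set), with 8 arrays in each, and the submitters' processing notes name BeadStudio. The deposited probe intensity values are scanner output with no normalization stated in the file headers, and each comes with a detection p-value the authors deposited. The authors' deposited table, intensity values whose background and normalization steps are not given in the sources used here, served as an alternative. Here, intensities were background-corrected and quantile-normalized within each set with neqc in limma 3.58.1 (R 4.3.3, offset 16), with negative controls inferred from the detection p-values. Probes detected at p under 0.01 on at least 2 of 8 arrays were kept, 13094 and 18391 (11218 to 12886 and 15933 to 17168 were detected per array), and the best detected probe stood for each symbol. Probe names came from the platform annotation, which gave 1 symbol for 28090 and 30113 probes, several for 13 and 8 and none for 20691 and 17110, and 7 and 11 symbols were updated.

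The limma test (lmFit and eBayes with trend, two-sided) was fitted on all genes of a set, with Benjamini-Hochberg adjustment over all of them and a call at an adjusted p under 0.05. One fit used the 4 titled groups. The other used 4 cells of replicate number by title, with the other title as a term. Having 2 arrays per group limits the precision, and each set is 1 chip, so chip and set cannot be told apart. The labels give no pairing, but the differences between replicate 2 and replicate 1 correlated across genes between groups at 0.431 to 0.743 in one set and 0.542 to 0.738 in the other, so the replicate number was also used as a block. Array values and differences were given for called members, up to 10 per comparison and direction, and for HK2, PFKFB2, PFKFB3, LDHA, PDK1, PGD and IDH1 in any case, and up to 3 called genes of each other list were eligible to be named. The members, lists, comparisons and tests were chosen with earlier results of these data known. Alternatives were median scaling, no background correction, the authors' values floored at 16, no detection filter, detection on all 8 arrays, the block, and leaving out each array. Python 3.11.15 was used for summaries and promoter searches, and matplotlib 3.10.9 for figures. The test was checked on simulated data.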

Additional observations from a re-analysis of the deposited data

Results flagged for a closer look

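Title differences that differed between the replicate numbers by limma's interaction test were found 8 times, for 7 members. In the DHT set, the DHT title difference on replicate 2 minus that on replicate 1 was -0.89 ± 0.15 for IDH1 (adjusted p = 0.000222), -0.86 ± 0.20 for IDH2 (adjusted p = 0.00605), -1.12 ± 0.31 for PFKFB2 (adjusted p = 0.0244) and 0.50 ± 0.15 for ALDOA (adjusted p = 0.0425). In the DEX set, the siFoxA1 title difference on replicate 2 minus that on replicate 1 was -0.75 ± 0.13 for IDH1 (adjusted p = 0.000861), -1.18 ± 0.20 for PFKFB3 (adjusted p = 0.00084), 0.56 ± 0.15 for PDHA1 (adjusted p = 0.0337) and 0.54 ± 0.13 for TALDO1 (adjusted p = 0.0135). Leaving out single arrays, IDH1 remained called in both sets and PFKFB3 in the DEX set, while the call was lost at least once for the other 5. Groups of 2 arrays are too small for a check of single outlying arrays.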

How the results depend on the processing

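No alternative turned the sign of a called member. With the replicate block, the counts of members called for the DHT title became 3 among parental and 3 among siFoxA1 titles (each 0 without it; 8.3% and 8.64% of all genes), and those for the siFoxA1 title in the DEX set became 12 under vehicle titles (0) and 11 under DEX titles (1), beside 20.0% and 19.8% of all genes, and the block changed no other count by over 1.5 times. The siFoxA1 title count under DEX titles was 0 with median scaling and 0 with no detection filter. The DHT title by replicate interaction gave 2 with the authors' values and 2 with no detection filter (4). With no detection filter, replicate 2 against 1 under siFoxA1 titles gave 9 (16) and the siFoxA1 title by replicate interaction 2 (4). The cause was not tested. Leaving out each array in turn gave 2 to 6 members for the DHT title on replicate 1 (7), 10 to 14 on replicate 2 (14), 3 to 9 for replicate 2 against 1 under vehicle titles (8), 7 to 14 under DHT titles (13), and 1 to 4 for the interaction (4). In the DEX set it gave 8 to 19 for the siFoxA1 title on replicate 1 (17), 13 to 22 on replicate 2 (21), 6 to 13 for replicate 2 against 1 under parental titles (11), 7 to 19 under siFoxA1 titles (16), 2 to 5 for the interaction (4), 0 to 1 for the siFoxA1 title under vehicle titles (0) and 0 to 1 under DEX titles (1). Where that leaves 1 array in a cell, it is assumed to vary like the others. All 39 members were detected on all 8 arrays of each set, so signal over background limited only PDK1.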
